A study of Homo sapiens and Mus musculus with 9 samples.

Results

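The comparison set the RNA sites deposited for HepG2 cells, a human hepatocellular carcinoma line, beside those deposited for LS174T cells, a human colorectal adenocarcinoma line. Every peak of both deposited lists was a member, 1557 peaks labelled HepG2 and 2103 labelled LS174T, or 3660 of the 5884 peaks in the 4 lists of the series. Each peak was given to the gene that held its summit, and genes and functions were then counted as present in 1 list or in both.

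The study ran enhanced UV crosslinking and immunoprecipitation (eCLIP) of the pregnane X receptor (PXR) on 9 samples, each from 20000000 cells irradiated at 254 nm with 400 mJ/cm2. The HepG2 libraries were 1 input, with no antibody, and 2 immunoprecipitates (IPs) made with an antibody to the HA tag. The labels call the HepG2 IPs PXR IPs and give neither a genotype nor the way a tagged receptor entered the cells. The wild-type LS174T libraries were 1 input and 1 IP with an antibody to PXR itself, and an IP from PXR knockout LS174T cells and liver of mice with human PXR completed the series. The cell lines therefore differed in antibody as well as in tissue, and cell line, antibody and library preparation cannot be told apart.

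PXR, encoded by NR1I2, is a ligand-activated nuclear receptor that binds drugs, steroids and bile acids and switches on genes of drug metabolism and transport in liver and intestine. It works as a DNA-bound partner of the retinoid X receptor and recruits coactivators or corepressors. In eCLIP, ultraviolet light joins a protein to the RNA it touches, an antibody pulls the protein down, and a peak is a place where sequenced RNA fragments pile up.

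Several features of the lists bear on everything below. The record ties the LS174T list used here to the wild-type input library, whereas the name of the list and of its peaks reads wild-type IP. It is called the WT-named LS174T list, and neither reading is taken as settled. Each cell line has 1 list with no values per library, and whether the HepG2 IPs were pooled is not stated. No difference below could be set against a spread between replicates, and no test was run. Shares carry exact Clopper-Pearson 95% intervals, which cover counting error only. Of 47 genes for secreted hepatocyte proteins and 32 for hepatocyte metabolism, none held a peak in either list, ALB and APOA1 included, nor did the fetal liver gene AFP. Over all genes tested, the HepG2 list named 2.95%, and 4.9% of protein-coding genes. As the label is not borne out by these markers, that list is called the list labelled HepG2. Peaks show where fragments were called, not how much RNA a cell makes.

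A single hairpin and 3 stretches just before transcription starts are shown first, and both lists called a peak at each. Peaks of both lists also overlapped the hairpins of MIR7977, MIR5100 and MIR3652, with summits outside the hairpin. The sequences are RefSeq's for GRCh38.p14, written 5′ to 3′ on the strand of the named gene. The hairpin of MIR4449 lies inside DANCR, a long noncoding RNA (lncRNA) gene, at chr4:52712682-52712747 on the plus strand. Both summits fell within its 66 bases, and the peaks held 312 reads in the list labelled HepG2 and 1909 in the WT-named LS174T list. The peaks ran from 52712620 to 52712913 and from 52712619 to 52712915, so they reached beyond the hairpin on both sides. Capitals mark the mature miRNA.
MIR4449: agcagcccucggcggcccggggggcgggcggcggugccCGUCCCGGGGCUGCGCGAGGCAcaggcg
The other sequences are the 250 bases before an annotated start, and capitals mark the bases that peaks of both lists covered. For ATP1B1, the beta subunit of the sodium-potassium pump, the window was chr1:169106440-169106689 on the plus strand, upstream of the annotated gene. The peaks on that strand held 10 and 142 reads, list labelled HepG2 first, and both summits lay in the window. The HepG2-labelled peak ended at 169106591, before the start, whereas the LS174T peak ran from 169106327 to 169107073 and so into the gene.
ATP1B1: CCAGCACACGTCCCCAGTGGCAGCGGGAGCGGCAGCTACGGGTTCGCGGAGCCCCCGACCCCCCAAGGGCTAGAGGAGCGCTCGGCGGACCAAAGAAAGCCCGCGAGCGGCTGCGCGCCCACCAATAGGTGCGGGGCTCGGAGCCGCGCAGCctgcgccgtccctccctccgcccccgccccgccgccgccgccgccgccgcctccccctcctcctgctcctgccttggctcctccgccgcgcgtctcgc
For CUX1, a homeodomain transcription factor, the window was chr7:101817376-101817625 on the plus strand, within the gene span and before a later start. Both peaks began at 101817454 on the same strand, with 26 and 95 reads.
CUX1: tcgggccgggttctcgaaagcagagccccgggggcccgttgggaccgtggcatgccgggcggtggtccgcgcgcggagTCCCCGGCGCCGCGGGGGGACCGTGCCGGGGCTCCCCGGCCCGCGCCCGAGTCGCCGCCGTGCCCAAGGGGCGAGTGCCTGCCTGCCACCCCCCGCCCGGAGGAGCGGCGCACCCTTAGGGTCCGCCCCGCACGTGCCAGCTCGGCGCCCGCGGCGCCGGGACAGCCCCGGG
For MARCHF9, a membrane-bound ubiquitin ligase, the window was chr12:57754853-57755102 on the plus strand, and the peaks, from 57754889 to 57755097 in both lists, lay on the opposite strand with 68 and 218 reads.
MARCHF9: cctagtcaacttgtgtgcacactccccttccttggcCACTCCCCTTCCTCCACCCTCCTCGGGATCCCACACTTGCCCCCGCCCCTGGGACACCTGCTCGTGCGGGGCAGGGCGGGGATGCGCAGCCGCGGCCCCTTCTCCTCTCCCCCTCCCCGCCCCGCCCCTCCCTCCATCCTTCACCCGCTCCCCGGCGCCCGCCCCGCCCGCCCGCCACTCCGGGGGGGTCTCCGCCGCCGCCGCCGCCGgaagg
The hairpin and these windows were singled out after their values were seen. In all, 50 HepG2-labelled peaks (3.21%, interval 2.39 to 4.21%) and 64 LS174T peaks (3.04%, interval 2.35 to 3.87%) had a summit between 250 bases before and 50 bases after an annotated start. They fell in 51 and 70 such windows, 17 of them in both lists. Guanine and cytosine made up 77.6% of the ATP1B1 stretch, 82% of the CUX1 stretch and 76% of the MARCHF9 stretch, against a median of 58% over all 35116 windows and 76% over the 17.

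The lists differed in reads at their peaks. Reads at each summit, worked out from the deposited fold enrichment and p-value, had a median of 9 (quartiles 6 and 16) in the list labelled HepG2 and 11 (quartiles 7 and 19) in the LS174T list. Fewer than 10 reads stood behind 783 peaks (50.3%) and 884 peaks (42.0%) respectively. The 10000 bp windows around the peaks held 120482 and 265803 reads, 2.21 times as many for LS174T, whose list has more peaks. Both sums are lower bounds on library depth, so they do not show which library was deeper. Peaks were short in both, with median widths of 200 and 213 bp, and lay on either strand (826 plus and 731 minus, and 1072 plus and 1031 minus).

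Peaks that overlapped by at least 1 bp on the same strand numbered 600 in the list labelled HepG2 and 601 in the LS174T list, which formed 602 pairs. Sharing followed depth in both directions. Of HepG2-labelled peaks, 37 of 341 with 3 to 5 reads met an LS174T peak (10.9%, interval 7.76 to 14.6%), 210 of 481 with 10 to 19 reads did (43.7%, interval 39.2 to 48.2%), and 74 of 90 with at least 50 reads did (82.2%, interval 72.7 to 89.5%). Of LS174T peaks, 52 of 269 with 3 to 5 reads met a HepG2-labelled peak (19.3%, interval 14.8 to 24.6%), 189 of 704 with 10 to 19 reads did (26.8%, interval 23.6 to 30.3%), and 108 of 148 with at least 50 reads did (73.0%, interval 65.1 to 79.9%). Between 6 and 49 reads a HepG2-labelled peak was thus met more often than an LS174T peak of the same read number, and why was not tested.

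**Figure D1:**
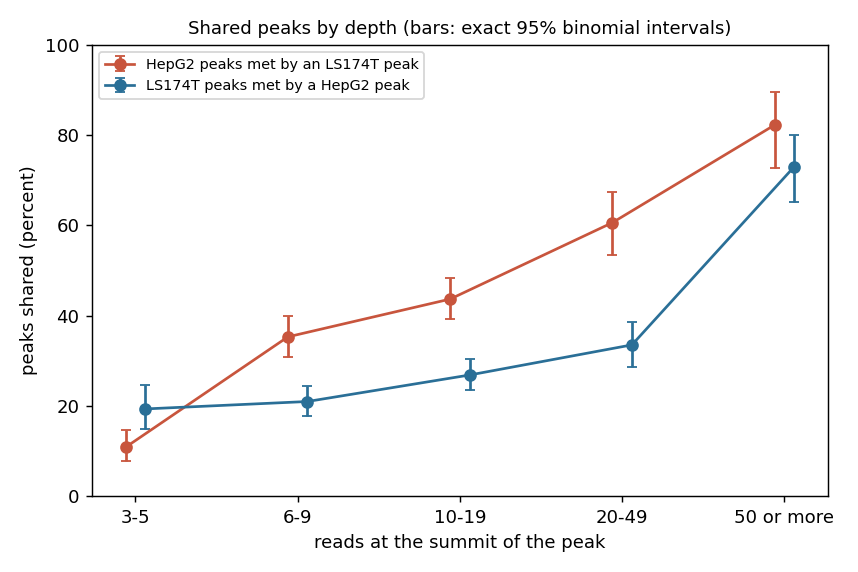
Share of peaks (percent, vertical axis) that overlapped a peak of the other list on the same strand, by reads at the summit (horizontal axis); points are shares and bars are exact 95% binomial intervals. HepG2-labelled peaks went from 10.9% to 82.2% and LS174T peaks from 19.3% to 73.0%, with the gap widest at 20 to 49 reads (60.6% against 33.5%).

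At the 602 pairs the LS174T list held more reads at 324, the list labelled HepG2 at 243, and 35 were equal. The median ratio, LS174T over HepG2-labelled, was 1.10 (quartiles 0.715 and 1.86). The 2.21 of the window reads is an unlike measure, a ratio of sums in which a few very deep peaks weigh most. The pairs, in turn, are only the peaks called in both lists. It was 1.07 for 429 pairs in protein-coding genes, 1.06 for 61 in lncRNA genes, 1.58 for 33 in pseudogenes, 2.30 for 9 in the mitochondrial genome and 2.83 for 8 at small RNA genes, where it ran from 0.4 to 38.4. Summits of a pair lay close, with a median distance of 16 bp, and 80 pairs had the same start and end in both lists. The 323 pairs on the annotated strand of a protein-coding gene had summits a median of 30 bp apart, and 124 of them (38.4%) lay within 20 bp. The 28 pairs on the opposite strand had summits 1 bp apart in the median, and 26 (92.9%) lay within 20 bp. Pairs outside annotated genes were as tight as the latter, with a median of 1 bp and 28 of 52 identical.

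The small KO-named LS174T list, 46 peaks that the record ties to the wild-type PXR IP, met 37 of the 600 shared HepG2-labelled peaks (6.17%, interval 4.38 to 8.4%). It met none of the 957 that the WT-named list did not share. Shared peaks were more often deep, as given above, and these shares were not compared at like read numbers.

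Among 38340 nuclear protein-coding and lncRNA genes, 1132 held a summit in the list labelled HepG2 (2.95% of all genes tested) and 1411 in the WT-named LS174T list (3.68%). Both lists named 498 of them (1.3%), which is 44.0% of the HepG2-labelled genes (interval 41.1 to 46.9%) and 35.3% of the LS174T genes (interval 32.8 to 37.9%). The list labelled HepG2 alone named 634 (1.65%) and the LS174T list alone 913 (2.38%). Genes of 1 list were shallow, with a median of 8 reads at the deepest summit for HepG2-labelled alone and 9 for LS174T alone, and 231 and 413 of them had at least 10 reads. Over all genes tested, 1.46% held a summit of at least 10 reads in the list labelled HepG2 and 1.97% in LS174T. At least 20 reads stood behind 49 genes of the list labelled HepG2 alone and 115 of the LS174T list alone.

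Genes found in both lists had a median ratio of 1.06 (quartiles 0.691 and 1.75), with 254 holding more reads in LS174T and 212 more in the list labelled HepG2. The deepest protein-coding site was in SYCP2L, a gene of the meiotic chromosome axis, with 4408 and 4233 reads, list labelled HepG2 first. Its peak held every read of its window in both lists. ARHGAP39, a GTPase-activating protein, held 361 and 620 reads, and the dynamin gene DNM3 435 and 873, there on the strand opposite to the gene. The uncharacterised LOC124901446 held 337 and 859 reads and LOC102724250 70 and 256. Behind these came genes of abundant epithelial mRNAs, KRT8 with 164 and 205 reads, KRT18 with 110 and 125, KRT19 with 72 and 146, and ACTB with 96 and 171. The Wnt receptor FZD6 held 226 and 73. Of the 12 leading genes, SYCP2L, DNM3 and ZNF773 held all the reads of their windows in both lists and FZD6 in the list labelled HepG2.

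**Figure D2:**
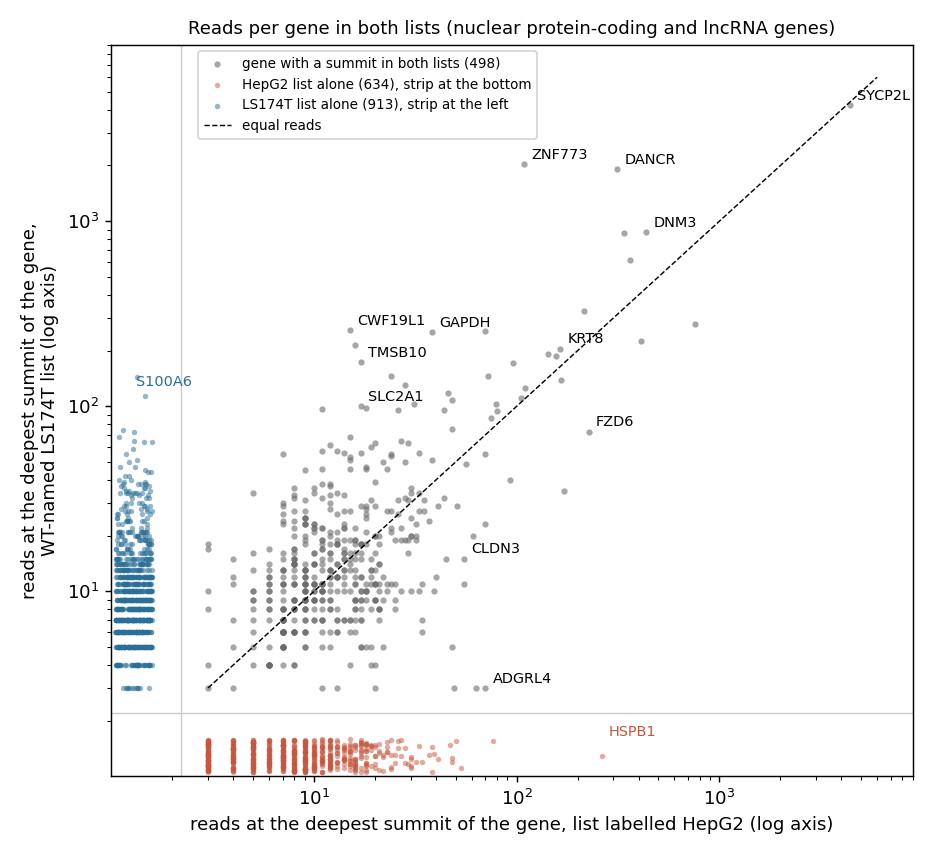
Reads at the deepest summit of each nuclear protein-coding or lncRNA gene in the list labelled HepG2 (horizontal axis, log scale) and in the WT-named LS174T list (vertical axis, log scale); each point is a gene, and genes of 1 list lie in strips whose place across the strip has no meaning. The 498 genes of both lists spread around the line of equal reads with a median ratio of 1.06, with SYCP2L at the top right (4408 and 4233) and ZNF773, CWF19L1 and GAPDH far above the line.

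Of genes with at least 20 reads in 1 of the lists, 203 were in both, and 79 of these held over 2 times as many reads in LS174T and 39 over 2 times as many in the list labelled HepG2. The zinc finger gene ZNF773 held 109 and 2035 reads on the opposite strand, CWF19L1, linked to splicing, 15 and 258, and TMSB10, which sequesters actin monomers, 17 and 173. SNHG29, a snoRNA host, held 11 and 96 and LINC03000 7 and 55. RTEL1, a helicase of telomere upkeep, held 16 and 214, but its peaks lay on different strands. At the other end were ADGRL4, an adhesion receptor, with 70 and 3 reads, LOC105370263 with 63 and 3, ANKRD42 with 49 and 3, the ubiquitin ligase G2E3 with 48 and 5, the methyltransferase SETD3 with 34 and 6, and the splicing factor RBM39 with 20 and 3. The peaks of ADGRL4, LOC105370263 and ANKRD42 held all reads of their windows in both lists, so no other reads lay around these stacks on their strand.

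Among protein-coding genes of the list labelled HepG2 alone the deepest was HSPB1, a small heat shock protein, with 263 reads. CDC42SE1 (76 reads), LRPAP1 (48 reads) and AJAP1 (32 reads) followed on the strand opposite to the gene. VMP1, which acts in autophagosome formation, held 53 reads in the deepest of 5 peaks. The transcription factor GATA3 held 47 reads, the BMP pseudoreceptor BAMBI 41, the Golgi protein BLZF1 38, the secretory regulator XBP1 38, the growth factor binding protein IGFBP5 37, the melanosome and vesicle adaptor MLPH 34 in 4 peaks, and FHIP2B 33. None of these had an LS174T peak, and the fewest reads behind any peak were 3 in either list. Among protein-coding genes of the LS174T list alone the deepest was S100A6, a calcium-binding protein, with 113 reads. The ribosomal gene RPL3 held 74 reads, the ferritin light chain FTL 73, the goblet-cell trefoil factor TFF3 68, the immunoglobulin transporter PIGR 65 in 7 peaks, the lysosomal protease LGMN 64, TBRG4 64, the angiogenic factor VEGFA 59, EEF1E1 55, RPS6 51, the lectin LGALS4 50 and the glutathione transferase GSTP1 47. The 12 leading protein-coding genes of LS174T alone thus ranged from 47 to 113 reads and those of the list labelled HepG2 alone from 32 to 263.

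Genes with several peaks were more frequent in LS174T, 284 of 1411 (20.1%, interval 18.1 to 22.3%) against 93 of 1132 (8.22%, interval 6.68 to 9.97%). Singled out after their values were seen, the amyloid precursor gene APP held 1 HepG2-labelled and 7 LS174T peaks, ENO1 2 and 7, and SLC2A1 1 and 6. The nuclear lncRNA NEAT1 went the other way, with 7 and 3 peaks, as did MALAT1 with 6 and 4.

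Where along a gene the summits lay was read for peaks on the annotated strand of protein-coding genes, 772 in the list labelled HepG2 and 1314 in LS174T. Both lists were heaviest at the 5′ end. The first 10% of the gene span held 50.5% of HepG2-labelled summits (interval 46.9 to 54.1%) and 43.8% of LS174T summits (interval 41.1 to 46.6%). The last 10% held 120 of 772 (interval 13.1 to 18.3%) and 276 of 1314 (interval 18.8 to 23.3%). Measured in bases, 45.2% (interval 41.7 to 48.8%) and 39.0% (interval 36.3 to 41.7%) of summits lay within 500 bp of the gene's 5′ end. Spans include introns, and exons and UTRs were not used here. For genes that both lists named, 41.8% of LS174T (interval 37.4 to 46.4%) and 51.3% of HepG2-labelled summits (interval 46.2 to 56.4%) lay in the first 10%. These shares lay further apart than those over all genes, and their intervals overlapped only from 46.2 to 46.4%. Glycolysis genes had 4 of 44 LS174T summits and 3 of 11 HepG2-labelled summits in the first 10%, with the median summit at 0.833 and 0.864 of the span, where 0 is the 5′ end and 1 the 3′ end. This group was singled out after its values were seen.

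**Figure D3:**
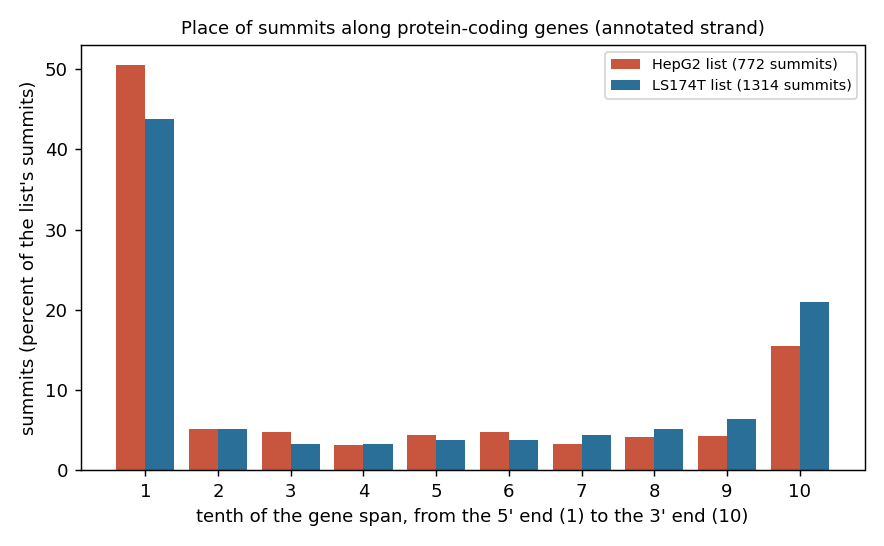
Share of summits (percent, vertical axis) in each 10% of the gene span from the 5′ to the 3′ end (horizontal axis) for summits on the annotated strand of protein-coding genes; bars are the list labelled HepG2 (772 summits) and the WT-named LS174T list (1314 summits). The first 10% held 390 and 576 summits and the last 10% 120 and 276, and every bar between them is lower than both ends in each list.

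Strand differed more between the lists. Of summits in protein-coding genes of known strand, 86.5% lay on the gene's strand in the list labelled HepG2 (772 of 892, interval 84.1 to 88.7%) and 94.9% in LS174T (1314 of 1385, interval 93.6 to 96.0%). Shared peaks had 92.0% in both lists. Peaks of 1 list had 83.1% (451 of 543, interval 79.6 to 86.1%) in the list labelled HepG2 and 95.8% (992 of 1035, interval 94.44 to 96.98%) in LS174T. Among peaks of at least 10 reads, those that held all the reads of their window lay on the gene's strand in 10 of 39 (25.6%, interval 13.04 to 42.13%) and 16 of 28 (57.1%, interval 37.2 to 75.5%), list labelled HepG2 first. The other peaks of at least 10 reads did so in 430 of 437 (98.4%, interval 96.7 to 99.4%) and 759 of 777 (97.7%, interval 96.4 to 98.6%). The intervals of these other peaks overlapped between the lists. Peaks of fewer than 10 reads lay on the gene's strand in 332 of 416 (79.8%, interval 75.6 to 83.6%) and 539 of 580 (92.9%, interval 90.5 to 94.9%), and they made up 84 of the 120 opposite-strand peaks of the list labelled HepG2.

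Of 20037 protein-coding genes, 982 held a summit in the list labelled HepG2 (4.9%) and 1289 in LS174T (6.43%), with 445 in both. These genes held 1085 HepG2-labelled peaks and 1698 LS174T peaks, while lncRNA genes held 172 and 136. Of genes named by 1 list, the list labelled HepG2 supplied 58.4% of the lncRNA genes (97 of 166, interval 50.5 to 66.0%) against 38.9% of the protein-coding genes (537 of 1381, interval 36.3 to 41.5%). With at least 10 reads the direction for lncRNA genes turned, with 24 in the list labelled HepG2 alone and 30 in LS174T alone. Leading lncRNA genes of both lists were DANCR, LOC107985958 (755 and 277 reads), LOC729732 (409 and 225), LOC105377166 (214 and 329) and LOC105378198 (157 and 186). The lncRNAs of the list labelled HepG2 alone were led by LOC105371204 with 50 reads, LINC02700 with 48, LOC101928622 with 39 and LOC105369975 with 29, each a stack with all the reads of its window, and HSALR1 with 19, which was not. Those of LS174T alone were led by LOC124907999 with 144 reads, PHLDA1-AS1 with 29, LOC124906110 with 23, EPHA2-AS1 with 22 and CCND2-AS1 with 21, none of them such a stack. Of peaks in lncRNA genes of known strand, 62 of 124 and 36 of 98 lay on the gene's strand, so the name often marks a place and not the RNA. Outside annotated genes lay 208 HepG2-labelled peaks (13.4%) and 104 LS174T peaks (4.95%), of which 52 in each list were shared.

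The deepest peak of both lists lay at the same place on a chromosome 22 scaffold, from 135085 to 135310, with 27958 and 76143 reads. Without its window the ratio of window reads was 2.05 in place of 2.21. RMRP, the RNA of RNase MRP, held 3179 and 1768 reads, RPPH1, the RNA of RNase P, 1321 and 3718, and TERC, the telomerase RNA, 95 and 464. The scaRNA SCARNA28, of a class that guides modification of spliceosomal RNAs in Cajal bodies, held 51 and 1957 reads, and SNORD133 14 and 330. SCARNA17 (722 reads), SCARNA9 (482 reads) and SCARNA26A (71 reads) were peaks of the LS174T list alone, and SNORD103C (24 reads) and SNORD143 (20 reads) of the list labelled HepG2 alone. In the mitochondrial genome the large rRNA RNR2 held 5464 and 23957 reads, the small rRNA RNR1 1782 and 4449 and the tRNA genes TRNG 187 and 664 and TRNY 565 and 288. RMRP and TRNY therefore had more reads in the list labelled HepG2.

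Beside the lists of protein-coding genes below stand the shares over all such genes, 4.9% in the list labelled HepG2 and 6.43% in LS174T. Ribosomal protein genes were named mostly by LS174T. Of 83 members, 21 were in both lists, 2 in the list labelled HepG2 alone and 32 in LS174T alone. The median ratio of the 21 was 1.63 against 1.06 for all genes of both lists. For the 203 genes of both lists with at least 20 reads in 1 of them the median was 1.54, close to that of the ribosomal genes. RPLP1, of the ribosomal stalk, held 46 and 118 reads, RPS2 75 and 86, RPL8 29 and 63 and RPS12 11 and 57, while RPL3 held 74 and RPS6 51 in LS174T alone. The exceptions, named after their values were seen, were RPLP0 with 11 reads and RPS27A with 7 in the list labelled HepG2 alone. Translation factors numbered 7 in both lists, 2 in the list labelled HepG2 alone and 9 in LS174T alone of 43. The median ratio of the 7 was 0.688, with 4 higher in the list labelled HepG2 and 3 in LS174T. The elongation factor EEF2 held 48 and 108 reads, the poly(A)-binding protein PABPC1 33 and 56, the termination factor GSPT1 25 and 11, and TPT1 42 and EIF5A 28 in LS174T alone.

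Replication-dependent histone genes, whose mRNAs end in a stem-loop in place of a poly(A) tail, were split the other way. Of 65, 20 were in both lists, 18 in the list labelled HepG2 alone and 1, H2AC15 with 6 reads, in LS174T alone. In the list labelled HepG2 14 of the 20 had more reads, and the median ratio was 0.667. H3C2 held 37 and 24 reads, H1-4 33 and 34, H1-2 33 and 27, H2AC20 32 and 20 and H2AC12 30 and 20. Reads at the deepest summit summed to 773 over the list in the list labelled HepG2 and to 352 in LS174T. The histone cluster on chromosome 6 was accordingly the densest stretch of the list labelled HepG2 alone. Between 26000001 and 27000000 it held 12 genes of that list alone, 10 of both and 0 of LS174T alone. The opposite extreme, singled out after its values were seen, was chromosome 19 from 1000001 to 2000000, with 11 genes of LS174T alone, 3 of both and 0 of the list labelled HepG2 alone, the 11 including RPS15 and UQCR11. Histone genes include nearly identical copies. How the authors placed reads among like sequences, for these or for ribosomal protein genes, is not given in the sources used here.

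Genes of RNA binding and splicing numbered 11 in both lists, 4 in the list labelled HepG2 alone and 13 in LS174T alone of 56. At 10 reads or more, 8 were in both, 6 in the list labelled HepG2 alone and 8 in LS174T alone. SRRM2, a scaffold of nuclear speckles, held 45 and 15 reads, HNRNPAB 20 and 29, HNRNPU 14 and 22, and HNRNPA2B1 26 in LS174T alone. Nuclear lncRNAs and snoRNA hosts numbered 7 in both, 2 and 4 alone of 34, with MALAT1 at 166 and 139 reads, NEAT1 at 79 and 103 and GAS5 at 105 and 111. DANCR held 312 and 1909 reads and SNHG29 11 and 96. Of the 7, 5 had more reads in LS174T and 2 more in the list labelled HepG2. Nucleolar proteins numbered 1, NHP2 with 11 reads, in the list labelled HepG2 and 5 in LS174T of 24, led by NCL with 14 reads and RRP1 with 10. These are 4.17% and 20.8%, beside 4.9% and 6.43% of protein-coding genes, and at 10 reads or more the counts were 1 and 2. The m6A machinery had 1 member of 19, YTHDF1 with 4 reads in LS174T, a share of 5.26% and so near that of protein-coding genes.

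**Figure D4:**
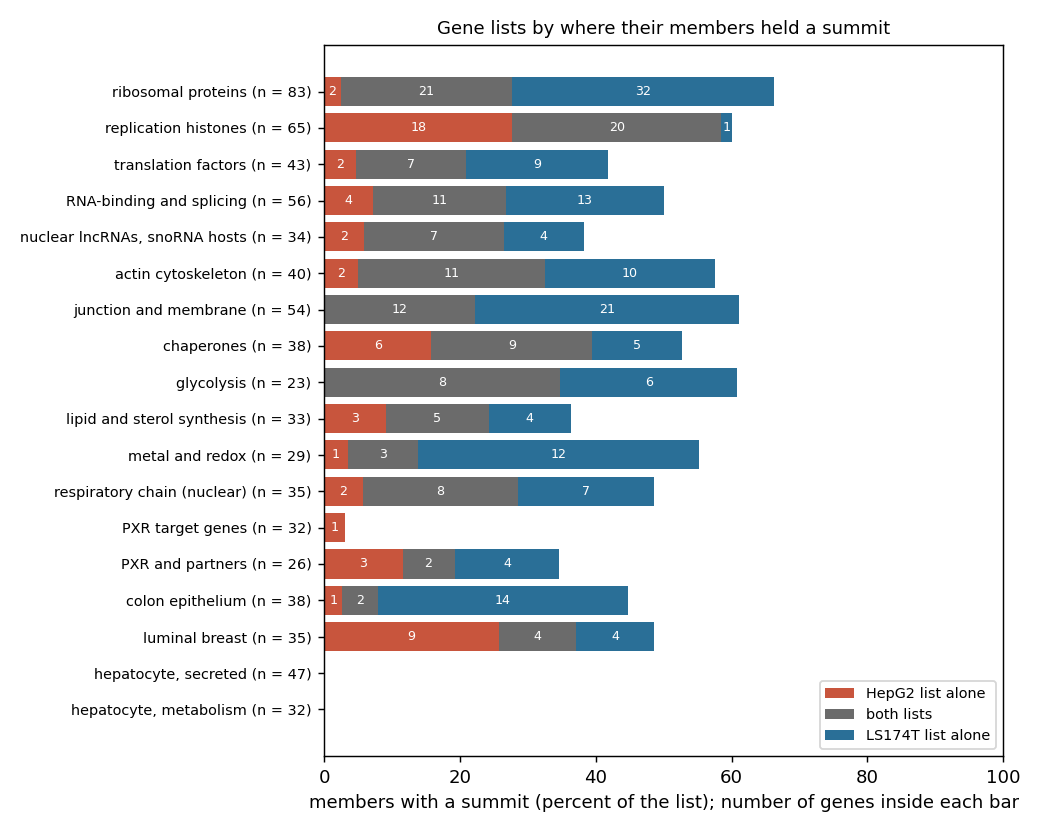
Members of 18 gene lists with a summit (percent of the list's matched genes, horizontal axis) in the list labelled HepG2 alone, in both lists or in the WT-named LS174T list alone; the number inside each bar segment is the count of genes. Histones (18, 20 and 1) and luminal breast genes (9, 4 and 4) had the longest HepG2-labelled segments. Metal and redox genes (1, 3 and 12), ribosomal proteins (2, 21 and 32) and junction genes (0, 12 and 21) had long LS174T segments, and the hepatocyte lists were empty.

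Glycolysis and redox genes were called more often in LS174T. Of 23 glycolysis genes, 8 were in both lists, 0 in the list labelled HepG2 alone and 6 in LS174T alone. The median ratio of the 8 was 4.09, against 1.06 for all genes of both lists and 1.54 for those with at least 20 reads in 1 list. Of the 8, 7 had more reads in LS174T. GAPDH held 38 and 251 reads, the glucose transporter SLC2A1 17 and 100, the aldolase ALDOA 44 and 95, the enolase ENO1 12 and 62 and the pyruvate kinase PKM 11 and 46. The exception, named after its values were seen, was the phosphofructokinase PFKL with 19 and 15. Metal-binding and redox genes numbered 3 in both lists, 1 in the list labelled HepG2 alone and 12 in LS174T alone of 29. The metallothioneins MT2A (12 and 37 reads), MT1E (44 reads in LS174T) and MT1G (35 reads in LS174T) and the genes FTL and GSTP1 above led them. With genes taken on the strand of the peak 5 were in both and 11 in LS174T alone. Nuclear genes of the respiratory chain were 8 in both, 2 and 7 alone of 35, with ATP5F1B at 13 and 34 reads. Lipid and sterol synthesis was even, 5 in both, 3 and 4 alone of 33, where ACSL3, which activates fatty acids, held 61 and 20 reads, the fatty acid synthase FASN 41 and 29, and SREBF1, the master regulator of lipogenesis, 20 in the list labelled HepG2 alone.

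Genes of cell shape and contact gave a similar picture. Actin cytoskeleton genes numbered 11 in both lists, 2 in the list labelled HepG2 alone and 10 in LS174T alone of 40, with ACTG1 at 28 and 130 reads, the profilin PFN1 at 27 and 65 and the cofilin CFL1 at 56 and 49. Of 54 genes of junctions and the cell membrane, 12 were in both lists, 0 in the list labelled HepG2 alone and 21 in LS174T alone. BSG, a partner of lactate transporters, held 14 and 56 reads, ATP1B1, inside its span, 45 in LS174T alone, and the tight junction gene CLDN3 55 and 15, with more in the list labelled HepG2. The junction list shares EPCAM, PIGR, CEACAM5, CEACAM6 and ITGB4 with the marker lists below. Chaperones were balanced, 9 in both, 6 and 5 alone of 38, yet in 8 of the 9 the LS174T list held more reads and in the other the numbers were equal. HSPA5, of the endoplasmic reticulum, held 15 and 46 reads, the disulfide isomerase P4HB 17 and 56, CALR 20 and 39 and HSP90AB1 23 and 46, beside HSPB1 with 263 in the list labelled HepG2 alone. Cell cycle genes numbered 4 in both and 3 and 1 alone of 30, with CCND1 at 35 and 31 reads, MYC at 27 and 19 and MCM7 at 18 and 11. At 10 reads or more the cell cycle genes of 1 list were 0 and 1.

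Genes of the receptor's own pathway came next. NR1I2 (chromosome 3, 119782101 to 119818487) held no peak in either list. Of 32 genes that PXR is known to switch on, 1 held a peak, the P450 reductase POR with 10 reads in the list labelled HepG2. That share of 3.13% stands beside 4.9% of protein-coding genes and 2.95% of all genes tested. Of 26 genes for the receptor and its partners, 2 were in both lists, 3 in the list labelled HepG2 alone and 4 in LS174T alone. That is 19.2% in the list labelled HepG2 and 23.1% in LS174T. Of protein-coding genes 4.9% and 6.43% held a summit, and of all genes tested, lncRNA genes included, 2.95% and 3.68%. At 10 reads or more, 2 were in the list labelled HepG2 alone and 1 in LS174T alone. The coactivator NCOA3 held 26 reads in the list labelled HepG2, the chaperone HSP90AB1 was among those in both, and the xenobiotic receptor AHR held 9 in LS174T. Also present, and named after their values were seen, were HSP90AA1 (15 reads) and PPARGC1A (3 reads) in the list labelled HepG2 and HNF4A (7 reads), NCOR1 (6 reads) and CREBBP (6 reads) in LS174T.

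Markers of tissue were then set beside the labels, with lists written when earlier results of these data were known. Of 38 colon epithelium genes, 16 held a peak in LS174T (42.1%) and 3 in the list labelled HepG2 (7.89%). Among all protein-coding genes the shares were 6.43% and 4.9%. In LS174T alone were TFF3 (68 reads), PIGR (65 reads), LGALS4 (50 reads), the colon mucosa gene PHGR1 (40 reads), the mucins MUC2 (24 reads) and MUC5B (12 reads), CEACAM5 (23 reads), CEACAM6 (13 reads), the mucin-folding gene AGR2 (21 reads), TSPAN8 (14 reads), the Wnt target ASCL2 (13 reads), REG4 (13 reads), GPA33 (10 reads) and the homeobox gene CDX1 (8 reads). Both lists held TFF1 (38 and 51 reads) and the adhesion molecule EPCAM (11 and 38 reads). CDH17, an intestinal cadherin, had 15 reads in the list labelled HepG2 alone, in a stack that held all reads of its window. CDX2, another intestinal homeobox gene, held no peak in either list. Reads at the deepest summit summed to 64 over the colon list in the list labelled HepG2 and to 463 in LS174T.

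For the list labelled HepG2, none of the 79 hepatocyte genes held a peak, and of 12 hepatoma and oncofetal genes 1 did, the heparan sulfate proteoglycan GPC3, with 8 reads there and 17 in LS174T. Both GPC3 peaks held all the reads of their windows. Of 35 genes of luminal breast epithelium, 13 held a peak in the list labelled HepG2 (37.1%) and 8 in LS174T (22.9%), 4 of them in both. Among all protein-coding genes the shares were 4.9% and 6.43%. As this list was also written with earlier results known, its counts are descriptions and no test of the label. In neither list were 18 members, among them FOXA1, PGR, SPDEF, KRT7, TRPS1 and SLC39A6. In the list labelled HepG2 alone were GATA3 (47 reads in the deepest of 3 peaks), XBP1 (38 reads), MLPH (34 reads), BCAS4 (25 reads), BCAS3 (23 reads), the oestrogen-responsive genes GREB1 (22 reads) and CA12 (11 reads), the zinc finger gene ZNF217 (10 reads) and ESR1, the oestrogen receptor (9 reads). The deepest peak of none of these 9 genes was a stack with all the reads of its window, and the 8 of known strand lay on the gene's strand. KRT8, KRT18, KRT19 and TFF1, which colon epithelium also makes, were the 4 in both lists. TFF3, AGR2, the stanniocalcin STC2 (18 reads) and TBX3 (9 reads) were in LS174T alone, and TFF3 and AGR2 are on the colon list too. Reads summed to 603 over the luminal list in the list labelled HepG2 and to 643 in LS174T, largely from the keratins. What the cells of the list labelled HepG2 were was not tested.

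**Figure D5:**
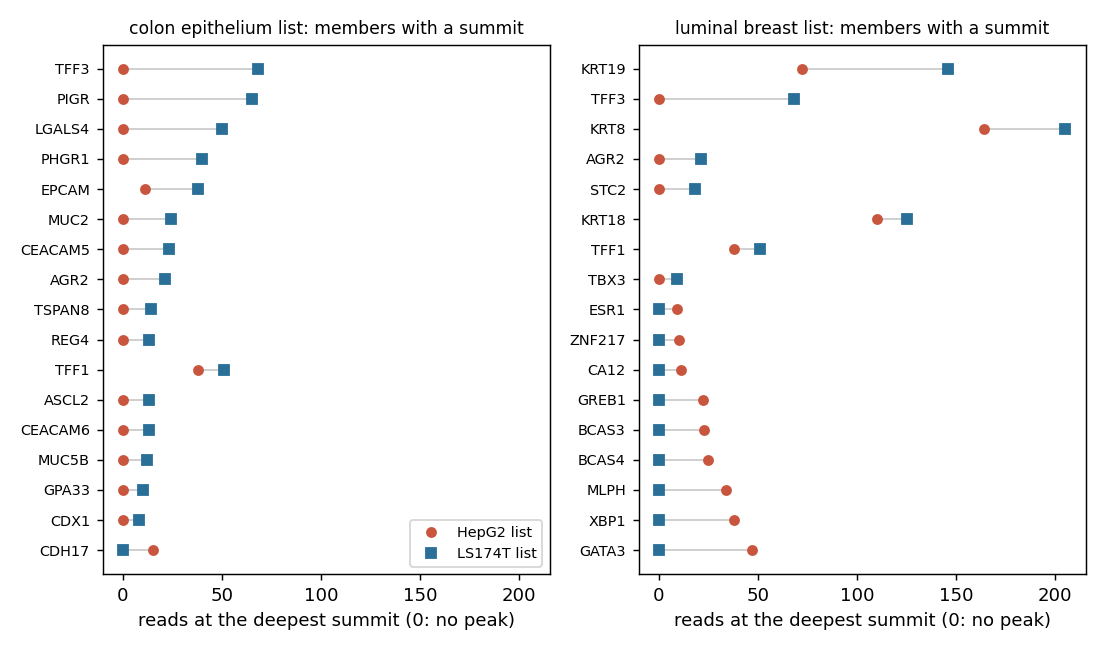
Reads at the deepest summit (horizontal axis; 0 stands for no peak) of every member of the colon epithelium list (left) and the luminal breast list (right) that held a peak, in the list labelled HepG2 (circles) and the WT-named LS174T list (squares). Colon genes lie almost all to the LS174T side, with CDH17 the exception, and 9 luminal genes from ESR1 to GATA3 lie at 0 in LS174T.

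The remaining marker lists had few members with a peak. Of 15 basal and squamous genes, LS174T held 3 (20%), among them ITGB4 (20 reads) and SFN (9 reads), and the list labelled HepG2 none. At 10 reads or more LS174T held 1 of them. Of 22 blood, immune and endothelial genes the list labelled HepG2 held ADGRE1 (8 reads, 4.55% of the genes). Of 14 neural genes it held SYT1 (11 reads, 7.14% of the genes), and LS174T held none of either kind. Among all protein-coding genes the shares were 4.9% in the list labelled HepG2 and 6.43% in LS174T. Of 17 mesenchymal genes neither list held any.

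Chromosomes contributed unequally to the genes of 1 list. The list labelled HepG2 supplied 41.0% of them overall (634 of 1547, interval 38.5 to 43.5%), but 24.1% on chromosome 19 (26 against 82 genes) and 30.8% on chromosome X (12 against 27). It supplied 57.1% on chromosome 9 (40 against 30), 56.7% on chromosome 13 (17 against 13) and 53.8% on chromosome 16 (42 against 36). These chromosomes were picked as the extremes after their values were seen.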

How the data were processed

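The members and gene lists were chosen with earlier results of these data known. The reads were handled with cutadapt, BWA and MACS2 on builds hg38 and mm10, per the submitters' processing notes, with versions and settings not given in the sources used here. Per peak, the authors deposited its fold enrichment (a ratio over local background), −log10 p-value, −log10 q-value, a score and a summit offset in bases. These are the authors' values, used within each list to recover reads or to filter, and the lists differ in reads at their peaks. The score enters no result.

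Reads n at a summit were recovered from fold = (n + 1) / (λ + 1) and the Poisson tail beyond n. The background λ was a multiple of 0.02, that is 200 bp of extension in a 10000 bp window. A solution had to match the p-value within 0.001 on the log10 scale plus rounding, with a window count whole within 0.01 plus rounding. It was unique for 1552 of 1557 and 2096 of 2103 peaks, and the other 5 and 7, all very deep, are approximate. Reads may include PCR copies. They are not per length, so levels are not compared between genes.

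The summit took a small RNA gene of the GRCh38.p14 RefSeq table first, a pseudogene next, and otherwise the shortest protein-coding or lncRNA gene. The gene was taken without regard to strand, and strand was known only for genes in the promoter table. Of 939 listed genes in 30 lists 938 matched. A gene's reads are those of its deepest summit. Shared peaks overlapped by at least 1 bp on 1 strand. Scripts (Python 3.11.15, pandas 2.3.3, scipy 1.17.1) were tested on simulated data. With 1 list per cell line no test was made.

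Named genes were the 12 deepest protein-coding genes of both lists and of each list alone; the 6 highest and 6 lowest ratios among genes with at least 20 reads; up to 5 members of each gene list; all cell type markers with a peak; NR1I2, ALB, APOA1, AFP and CDX2; and 5 lncRNA and 5 small RNA genes of each kind. Others are said to be named after their values were seen, and a few members are not reported here. Alternatives were a reciprocal overlap of 50%, overlap without strand, genes on the strand of the peak, the longest gene, −log10 q of at least 5, and at least 10 reads.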

Additional observations from a re-analysis of the deposited data

How the results depend on the processing

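With a reciprocal overlap of 50% the shared peaks were 34.9% of HepG2-labelled and 25.8% of LS174T peaks. With −log10 q of at least 5 in both lists, 43.8% of HepG2-labelled peaks and 47.3% of HepG2-labelled genes were shared, and with at least 10 reads 42.2% of HepG2-labelled peaks were. The other overlaps and the median read ratio stayed within their 95% interval or quartiles under these settings, without strand, with genes on the strand of the peak and with the longest gene. Of the counts for single gene lists and gene types, 14 of 98 moved, by over 1.5 times or beyond the interval of a share, with the q filter, 20 of 98 with the read filter and 7 of 90 with genes on the strand of the peak. Histones kept the direction given above, with 20 in the list labelled HepG2 alone and 1 in LS174T alone at 10 reads or more, as did ribosomal proteins, with 1 and 28. The order of members in 1 list turned at 10 reads or more for chaperones (4 and 5, and 5 and 6 with the q filter), cell cycle genes (0 and 1) and PXR partners (2 and 1), and with genes on the strand of the peak for lipid synthesis (5 and 4).

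About 50.3% of HepG2-labelled and 42.0% of LS174T peaks rested on fewer than 10 reads. No paired analysis was possible because the lists carry no values per library, although the HepG2 and liver IPs share replicate numbers. Leaving out a replicate was not possible for the same reason.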
